A study of Mus musculus with 4 samples.

Results

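The expression of 10 extracellular matrix genes was followed in cultured mouse Th17 cells, a class of T helper cell named for its interleukin 17: Col4a1, Col4a2, Lamc1, Nid1 and Hspg2 of the basement membrane, and Col1a1, Col6a1, Lum, Sparc and Serpinh1 of interstitial matrix and collagen handling. They were taken by gene symbol, 10 of the 52636 genes in the deposited table, to ask whether a fall of Col4a1 and Col4a2 in PP2A cKO cells was shared by other matrix genes. The set was chosen by the FPKM of Col4a1 and Col4a2 in these same libraries, with the fall in cKO already seen, so differences of the 10 genes between the genotypes are given below as descriptions, without p-values. The libraries were 2 labelled PP2A WT and 2 labelled PP2A cKO, all of the C57BL/6 strain. PP2A is a serine/threonine phosphatase, and cKO stands for a conditional knockout whose targeted subunit and deleting agent the labels do not name. Naive T cells of both genotypes were cultured with irradiated autologous antigen presenting cells at 1 to 3 for 2 days, stimulated through CD3 and CD28 by antibodies at 2 µg/ml. The polarizing cytokines were IL-6 at 20 ng/ml and TGF-β1 at 2 ng/ml, while IL-4 and IFN-γ were blocked by antibodies at 10 µg/ml. A 4 h restimulation with 50 ng/ml PMA and 500 ng/ml ionomycin preceded RNA extraction in all cultures. Neither the age nor the number of the mice is given. Replicates are called biological, but no source says which mice or cultures they came from, so errors and p-values measure only the spread between these libraries.

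Basement membranes are thin sheets of matrix under epithelia, around vessels and around muscle. Type IV collagen, made mainly of α1 and α2 chains wound together, forms 1 of their networks and laminin, a trimer of α, β and γ chains, forms the other. Nidogen and perlecan link the networks. Fibroblasts, endothelial cells and epithelia are the usual makers of these proteins, while T cells are better known for crossing basement membranes with integrins and proteases.

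Col4a1 and Col4a2, which encode the α1 and α2 chains of type IV collagen, lie head to head on mouse chromosome 8. Col4a1 runs on the minus strand at chr8:11198423-11312826 and Col4a2 on the plus strand at chr8:11312805-11449287 (GRCm38), so that their 5′ ends share 22 bases. The stretch over these ends is shown because the 2 genes overlap there. It is read on the plus strand at chr8:11312801-11312830, with the shared 22 bases in capitals. The stretch at chr8:11312761-11312789 is shown because it holds the CCAAT box of these windows closest to both starts, in capitals, which begins 32 bases before the Col4a2 start and lies within the Col4a1 gene. Both are from RefSeq (GRCm38.p6).
Shared 5′ ends: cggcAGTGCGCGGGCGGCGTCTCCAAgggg
CCAAT box: ccgaggagctccCCAATttgttggcgctg
Of the 10 genes, 7 had a RefSeq promoter window, which spans 250 bases before to 50 bases after a start. The GC box GGGCGG, searched on both strands, matched 3 times in the Col4a2 window and 1 time in the Col4a1 window, and 35.7% of the 32851 windows hold it. It also matched 5 times in the Hspg2 window and 1 time each in those of Nid1 and Serpinh1. The match inside the shared 22 bases is the same for Col4a1 and Col4a2. CCAAT, searched likewise, matched in 37.4% of windows, and of the 7 genes in Col4a1, Col4a2 and Nid1, at another position in the Col4a1 window than the box shown. The windows of Col4a1 and Col4a2 held 74% and 73.7% G and C, against a median of 52.7%. Neither held the TATA box TATAAA, the AP-1 site TGANTCA, the NFAT core GGAAAA or the SMAD palindrome GTCTAGAC, which says only that these letters are not there.

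Values below are FPKM, read fragments corrected for the length of the gene and the size of the library, so levels can be compared between genes. Col4a1 stood at 3.69 and 5.88 FPKM in WT replicates 1 and 2, and at 0.244 and 0.269 FPKM in cKO replicates 1 and 2. These levels rest on 539 and 838 reads in WT and on 37 and 39 reads in cKO. Both cKO libraries lay far under both WT libraries, and the spread within WT, where replicate 2 was 1.59 times replicate 1, was small beside the gap. Mean FPKM fell 18.6-fold, from 4.78 ± 1.55 in WT to 0.257 ± 0.0180 in cKO (SD, n = 2 each). The log2 fold change on the log2(FPKM + 1) scale, where the added 1 shrinks changes of weakly expressed genes, was -2.18 ± 0.20 (SE of the limma fit).

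Col4a2 had 2.63 and 4.26 FPKM in WT and 0.223 and 0.210 FPKM in cKO, from 341, 539, 30 and 27 reads in that order. WT replicate 2 was again the higher WT library, 1.62 times replicate 1, and the cKO libraries were close to each other. The mean fell 15.9-fold, from 3.45 ± 1.15 to 0.217 ± 0.00901 FPKM (SD, n = 2 each), a log2 fold change of -1.85 ± 0.20. Among all 10562 genes tested, Col4a1 had the lowest fold change and Col4a2 ranked number 3 from the bottom. Since these are libraries from whole cultures, fewer cells that express the genes and less RNA per cell cannot be told apart.

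**Figure D1:**
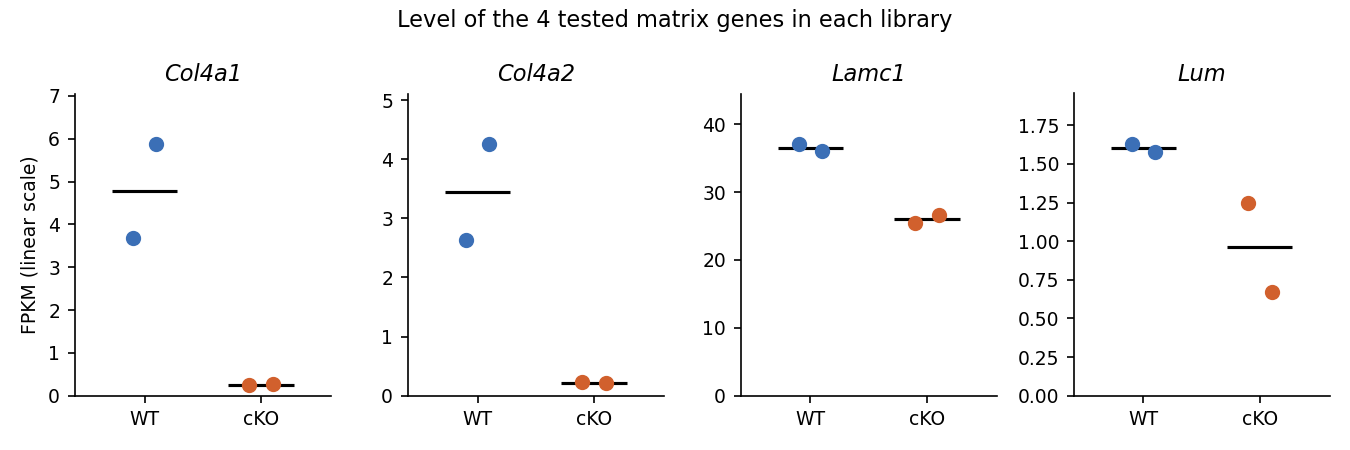
FPKM (y axis, linear, from 0) of Col4a1, Col4a2, Lamc1 and Lum in each of the 2 WT and 2 cKO libraries (points), with a bar at each mean; each panel has its own scale. In all 4 genes both cKO points lie under both WT points, by 18.6-fold in mean for Col4a1 and by 1.40-fold for Lamc1.

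The ratio of Col4a1 to Col4a2 within a library was not used to choose the genes. It was 1.40 and 1.38 in the WT libraries, with exact 95% intervals from the reads of 1.22 to 1.61 and 1.24 to 1.54. In the cKO libraries it was 1.09 and 1.28, with intervals of 0.657 to 1.83 and 0.764 to 2.18, which cover counting error only. The WT ratios averaged 1.39 ± 0.0162 and the cKO ratios 1.19 ± 0.132 (SD, n = 2 each). An exact two-sided permutation test gave p = 0.333, the smallest p that 2 libraries against 2 allow. The cKO intervals contain both WT ratios, so a change of the ratio was not detectable at this depth. No other type IV chain accompanied the α1 and α2 genes. Col4a3 and Col4a4, which encode chains of the kidney and lung basement membranes, had at most 2 reads in any library, and Col4a5 and Col4a6 were listed at 0 in all 4.

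Lamc1, which encodes the γ1 chain found in most laminins, was the most abundant of the 10 genes. It lies at chr1:153218922-153332786 and had 37.1 and 36.0 FPKM in WT and 25.5 and 26.6 FPKM in cKO. The groups did not overlap, and libraries of 1 genotype differed by at most 1.04 times. Its mean was 1.40-fold lower in cKO, 26.1 ± 0.776 against 36.6 ± 0.796 FPKM (SD, n = 2 each), a log2 fold change of -0.47 ± 0.09 that lies among the lowest 4.31% of tested genes. The pseudogene Gm8818 lies within Lamc1 and had at most 17 reads in a library. The other chains needed for a γ1 laminin were nearly absent from these cells. Lamb1, the usual β partner, had at most 1 read per library, Lamb2 had 5 and 0 reads in WT and 2 and 1 reads in cKO, and Lama1, Lama2 and Lama4 were listed at 0 in all libraries. Lama5 was the only α chain gene with more than 2 reads in a library, with 0.162 and 0.230 FPKM in WT and 0.402 and 0.448 FPKM in cKO. Lamb3, which encodes the laminin β3 chain, had 0.653 ± 0.0498 FPKM in WT and 0.705 ± 0.00703 FPKM in cKO (SD, n = 2 each).

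The linkers of the basement membrane were near the limit of detection. Nid1, which encodes nidogen 1, had 7 and 5 reads in WT and 6 and 7 reads in cKO, or 0.0377 to 0.0520 FPKM, with overlapping groups. Its relative Nid2 had 29 and 19 reads in WT and 13 and 18 in cKO. Hspg2, which encodes perlecan, had 3 and 0 reads in WT and 0 and 5 reads in cKO. At these counts a change of the size seen for Col4a1 could not be shown for Hspg2, and for Nid1 the reads summed to 12 in WT and 13 in cKO.

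Lum encodes lumican, a small leucine-rich proteoglycan that binds collagen fibrils. It lies at chr10:97565128-97572703 and had 1.63 and 1.58 FPKM in WT and 1.25 and 0.674 FPKM in cKO, from 78, 74, 62 and 32 reads. The groups did not overlap, but the cKO libraries differed 1.85-fold between themselves, more than cKO replicate 1 differed from WT. The WT mean was 1.61 ± 0.0326 FPKM against 0.960 ± 0.405 FPKM for cKO (SD, n = 2 each), with a log2 fold change of -0.43 ± 0.17. That value was -0.21 without cKO replicate 2 and -0.64 without cKO replicate 1, so its size rests on cKO replicate 2. Dcn, which encodes the related proteoglycan decorin, had 2 reads in WT replicate 2 and 0 in the other libraries.

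The remaining genes of interstitial matrix gave almost no reads. Col1a1, the main fibrillar collagen gene, had 2 and 1 reads in WT and 2 and 0 in cKO, and its partner Col1a2, like Col3a1, was listed at 0 throughout. Col6a1, which encodes a chain of the beaded filaments around cells, was listed at 0 in all 4 libraries, and its partners Col6a2 and Col6a3 had 0 reads in WT and 1 in each cKO library. Sparc, which encodes a matricellular protein that binds type IV collagen, had 1 and 0 reads in WT and 3 and 3 in cKO. Both groups stand at or under the limit of 3 reads, so no fold is given. Serpinh1, which encodes the collagen chaperone HSP47, was listed at 0 in all libraries. A count of 0 allows up to 3 reads, or 0.0604 to 0.0643 FPKM for Serpinh1 and 0.0337 to 0.0359 FPKM for Col6a1. The sources used here do not say how reads that map to several places were counted, so reads lost in counting cannot be told apart from absent transcripts.

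**Figure D2:**
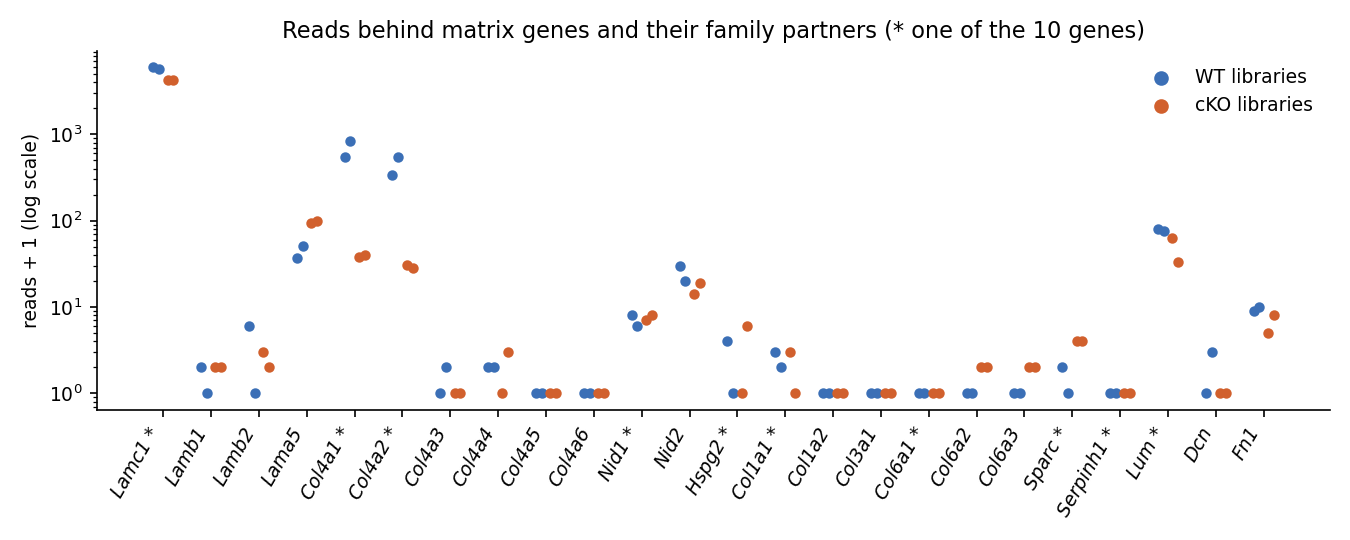
Reads plus 1 (y axis, log scale) in the 2 WT and 2 cKO libraries (points) for the 10 genes, marked with an asterisk, and genes of the same families. Lamc1 lies between 4272 and 6013 reads, Col4a1 and Col4a2 drop from between 341 and 838 reads in WT to between 27 and 39 in cKO, and most partner genes sit at or near 0.

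In order of mean WT level the 10 genes were Lamc1, Col4a1, Col4a2, Lum, Nid1, Col1a1, Sparc and Hspg2, with Col6a1 and Serpinh1 at 0. The WT libraries of Col4a1 and Col4a2 overlap in range, so their order rests on the ratio within a library, and Col1a1, Sparc and Hspg2 cannot be ordered at 0 to 3 reads each. In cKO the order changed to Lamc1, Lum, Col4a1 and Col4a2, with no overlap between the libraries of Lum and those of Col4a1. The order of Col4a1 and Col4a2 in cKO is not settled. The intervals of their ratio there, 0.657 to 1.83 and 0.764 to 2.18, allow either order.

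A call was made where the limma fit over all genes gave an adjusted p under 0.05. It covered genes averaging 1 FPKM or more across all libraries, which 4 of the 10 genes reached. Col4a1, Col4a2 and Lum reached it through their WT libraries, since their cKO means were 0.257, 0.217 and 0.960 FPKM. Col4a1 and Col4a2 were called lower and Lamc1 and Lum were not. For comparison, 0.256% of the tested genes were called lower and 0.814% higher, but the choice of the genes used this contrast and nothing is read from that count. Without cKO replicate 1, Col4a2 was not called. Lamc1 was called lower as well without cKO replicate 2, after the GC correction described below, and by voom, a fit on reads in which 2.62% of genes were called lower. The other fits that called Lamc1 also called more of all genes lower than limma did with all libraries and no correction. In each of these 4 genes the cKO libraries were both lower than either WT library, which was so for 28.7% of tested genes, and nothing is read from that count either.

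Among the other structural matrix genes none was called lower by limma or by voom. Of 26 other basement membrane genes and 33 other interstitial matrix genes, 19 had 0 reads in every library and 4 reached 1 FPKM, among them Ecm1, Emilin1 and Col5a3. None of the 4 was called by limma. An unadjusted p under 0.05 was found for 1 of them, and for 2094 of all 10562 tested genes. Ecm1, which encodes a secreted matrix glycoprotein, had the highest level, 49.3 ± 2.42 FPKM in WT and 56.8 ± 19.3 FPKM in cKO, a difference of 0.16 ± 0.24 on the log2 scale (limma adjusted p = 0.725). Its cKO libraries lay on either side of WT, at 43.1 and 70.4 FPKM, so by voom it was called higher without cKO replicate 1 and lower without cKO replicate 2. Emilin1 and Col5a3 had log2 fold changes of -0.16 and 0.02 (limma adjusted p = 0.397 and 0.938).

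Genes with lower levels were reached with voom, limma's method for reads, run on recovered reads, for genes with at least 10 reads in 2 libraries. Of the 59 matrix genes 17 could then be tested, and 4 were higher in cKO and 0 lower, while 2.93% of all genes were called higher and 2.62% lower in that fit. Lama5, the laminin α5 gene, had 36 and 50 reads in WT and 93 and 99 reads in cKO (log2 fold change 1.13 ± 0.25, voom adjusted p = 0.0444). Vcan, which encodes the proteoglycan versican, had 10 and 16 against 66 and 39 reads (1.93 ± 0.42, adjusted p = 0.0395). Col5a1, a gene of minor fibrillar collagen, had 2 and 4 against 18 and 17 reads (35 against 6 in sum, adjusted p = 0.036), with no fold given because WT replicate 1 is under the limit of 3 reads. Lama5, Vcan and Col5a1 thus moved opposite to Col4a1 and Col4a2, at low levels. All of these 3 missed the threshold without WT replicate 1 (voom adjusted p = 0.251, 0.0619 and 0.11). Among genes on the same side as Col4a1, Smoc1, which encodes a basement membrane protein of the SPARC family, had 21 and 25 reads in WT and 7 and 9 in cKO (-1.51 ± 0.40, adjusted p = 0.0692). Npnt, which encodes the integrin ligand nephronectin, had 53 and 26 against 14 and 13 reads (-1.47 ± 0.44, adjusted p = 0.0993). Smoc1 and Npnt were named after their values were seen, both were called lower without cKO replicate 2, and Npnt also without WT replicate 2.

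Genes for modifying and secreting collagen gave no call. Among 37 such genes, 17 were tested by limma and none was called, and voom called 0 of 21. An unadjusted p under 0.05 was found for 3 of the 17 by limma, against 2094 of all 10562 tested genes. By voom it was found for 4 of the 21, against 2823 of 12844 genes. The median log2 fold change was -0.02. P4hb, a subunit of the prolyl hydroxylase that stabilises the collagen helix, had 191 ± 3.65 FPKM in WT and 188 ± 4.47 in cKO. The tested gene with the largest change was P3h1, a prolyl 3-hydroxylase gene, with 4.14 ± 0.127 and 2.94 ± 0.699 FPKM (log2 fold change -0.40 ± 0.15, limma adjusted p = 0.228). Without cKO replicate 2, limma called P3h1, Crtap and Colgalt1 lower and Ppib higher. That fit called far more of all tested genes in both directions than the fit with all libraries, so nothing is read from these calls. P4hb thus stood far above Col4a1 and Col4a2 in level, while the chaperone gene Serpinh1 was listed at 0.

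The integrin genes Itgb1 and Itga3 had the highest mean levels of the matrix receptor list. Of 12 tested matrix receptor genes limma called Hmmr lower and none higher, with a median log2 fold change of 0.06 (-0.003 over all tested genes). Hmmr, which encodes a hyaluronan receptor that also acts on the mitotic spindle, went from 16.1 ± 0.0378 to 9.68 ± 0.206 FPKM (-0.68 ± 0.08, adjusted p = 0.0458), and was not called without WT replicate 1 or 2 (0.238 and 0.292). Itgb1 and Itga3, whose products bind collagens and laminins, had 106 ± 4.34 and 85.7 ± 7.04 FPKM in WT and 128 ± 16.6 and 123 ± 25.1 in cKO (adjusted p = 0.317 and 0.195). Itga3 was called higher without cKO replicate 1, and Itgb1 without cKO replicate 2. Both of these fits called more of all tested genes than the fit with all libraries, so nothing is read from these calls. Voom added Itgav as higher (0.58, adjusted p = 0.0484), which missed the threshold without WT replicate 2 (0.538).

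Of 13 tested proteases and inhibitors limma called Adam8, a metalloprotease gene of leukocytes, higher and none lower. It rose from 3.33 ± 0.543 to 10.1 ± 0.993 FPKM (1.36 ± 0.13, adjusted p = 0.0291), with 3.71 and 2.95 FPKM in WT and 9.40 and 10.8 FPKM in cKO, and missed the threshold without WT replicate 2 (0.0548). Voom also called Mmp13, a collagenase gene, with 18.1 ± 1.10 and 29.9 ± 3.64 FPKM, and Timp1, which encodes an inhibitor of matrix metalloproteases, with 103 ± 24.8 and 245 ± 43.8 FPKM (adjusted p = 0.0206 and 0.0125), while limma on FPKM did not (0.0711 and 0.0691). By voom, Mmp13 missed the threshold without WT replicate 1 (0.106). The median of the list was 0.23.

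TGF-β1 was in every culture, and genes that respond to it were listed because type IV collagen genes are among its known targets in other cells. Of 16 tested members limma called Id3, which encodes an inhibitor of E proteins, higher (17.7 ± 0.415 and 30.9 ± 2.44 FPKM, log2 fold change 0.77 ± 0.10, adjusted p = 0.0492) and none lower. Id3 was not called without WT replicate 1 or 2 (0.216 and 0.317). Voom called 2 of 18 genes of this list higher, Id3 among them, and Klf10 lower (3.91 ± 0.210 and 2.30 ± 0.193 FPKM, adjusted p = 0.0364). Klf10 missed the threshold in voom without WT replicate 1 or 2 (0.0839 and 0.211). The median of the list was 0.22. Across the 6 lists other than the 10 genes, voom called 10 of 89 genes higher, or 11.2%, and 2 lower, or 2.25%, against 2.93% and 2.62% of all genes in that fit. With a library left out these counts ran from 5 higher and 0 lower (without WT replicate 1) to 26 higher and 14 lower (without cKO replicate 2).

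**Figure D3:**
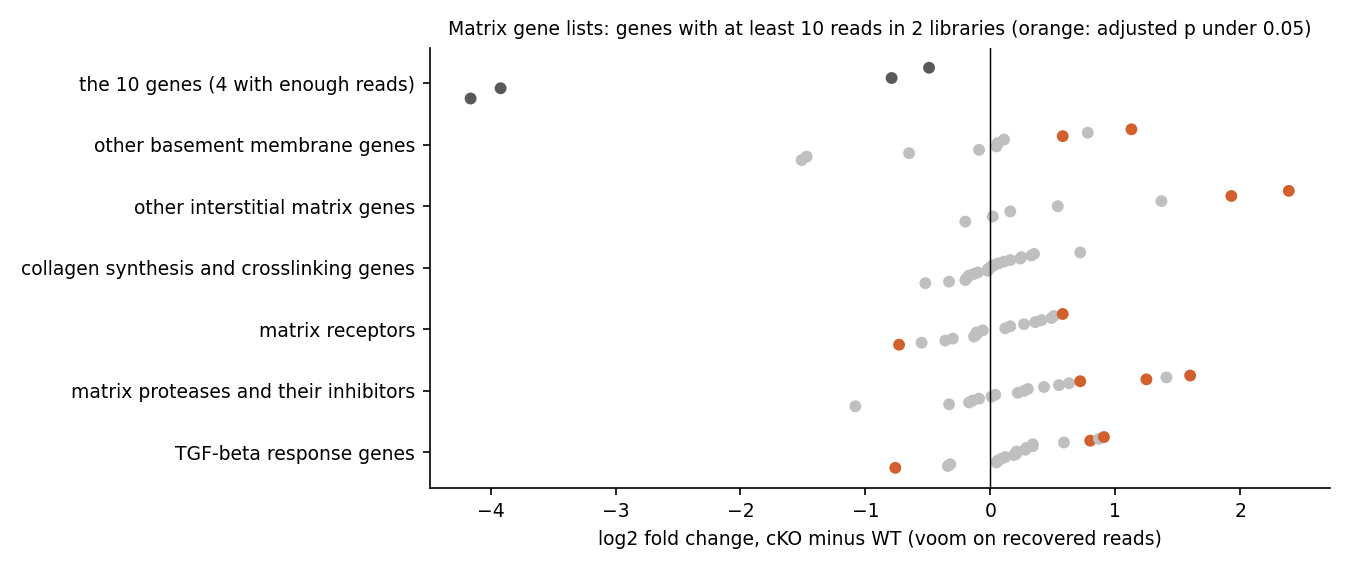
Log2 fold change, cKO minus WT, by voom on recovered reads (x axis) for genes with at least 10 reads in 2 libraries in each list (rows); orange points had an adjusted p under 0.05 and the 4 dark points at the top are Col4a1, Col4a2, Lum and Lamc1, given without a test. Col4a1 and Col4a2 lie at -4.16 and -3.92, apart from every other point, while the lowest other basement membrane gene, Smoc1, lies at -1.51.

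Markers of the cells that usually make basement membrane were looked at in the same libraries. T cell markers summed to 1510 to 1580 FPKM in WT and 1840 to 1960 in cKO, led by Cd5, Zap70 and Lck. Of these 12 markers limma called none, with 8 at an unadjusted p under 0.05, against 2094 of all 10562 tested genes. Voom called 3 of the markers higher, Cd2 and Cd5 among them, and Zap70 lower. Of 15 fibroblast and stromal markers 6 had 0 reads in all libraries, among them Col1a2 and Col3a1, and Pdgfra had 2 reads in 1 library. Their sum, 59.2 and 61.6 FPKM in WT and 75.9 and 63.8 in cKO, was nearly all Pdpn, which Th17 cells also express, followed by Twist1 and Tagln. Of 12 endothelial markers 5 were listed at 0, among them Cdh5 and Kdr, and the sum was 1.77 and 2.17 FPKM in WT and 1.86 and 2.28 in cKO, mostly Pecam1, then Erg and Plvap. The fibroblast sum was thus higher in both cKO libraries, and the endothelial sums, which mostly follow Pecam1, overlapped between the genotypes. Within the endothelial list, Erg had 1 and 0 reads in WT and 12 and 9 in cKO. Flt1 had 0 reads in both WT libraries and 4 in each cKO library. No endothelial marker had both cKO libraries under both WT libraries.

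The culture also held irradiated antigen presenting cells. B cell markers summed to 8.44 and 9.43 FPKM in WT and 5.25 and 5.68 in cKO, led by Ighm with 7.69 ± 0.944 and 4.17 ± 0.175 FPKM (limma adjusted p = 0.0564, voom 0.0259, and 0.142 by voom without WT replicate 2), then Ebf1 and Cd79a, with none of the 12 markers at 0 in all libraries. Macrophage and monocyte markers summed to 1.90 and 2.28 FPKM in WT and 1.69 and 1.30 in cKO, led by Cd68, Cd14 and Itgam, with 4 of 14 listed at 0, among them C1qa, C1qb and C1qc. Dendritic cell markers, led by Fscn1, Xcr1 and Zbtb46, summed to 1.05 and 0.740 FPKM in WT and to 1.03 and 1.05 FPKM in cKO, with 4 of 9 listed at 0. Megakaryocyte and platelet markers, led by Gp1ba and Itga2b, summed to at most 0.305 FPKM. Gp9 had a single read, in cKO replicate 2, which is under the limit of 3 reads. B cell and macrophage sums were lower in both cKO libraries, as Col4a1 and Col4a2 were, by less than 2-fold. Without Ighm the B cell sums overlapped, at 1.42 and 1.07 FPKM in WT and 1.20 and 1.39 FPKM in cKO, and Cd79a had 0.456 and 0.323 FPKM in WT against 0.473 and 0.637 FPKM in cKO. Without Cd14, which had 13 and 24 reads in WT and 8 and 2 in cKO, the macrophage sums were 1.48 in both WT libraries and 1.44 and 1.23 FPKM in cKO, while Itgam had 2 reads in each WT library and 7 and 3 in cKO. The part of these cells in the result was not tested.

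Genes next to Col4a1 and Col4a2 were compared with them, a comparison added after their values were seen. Within 1000 kb on either side 8 other genes were tested, and limma called none of them. Of the 8, 2 had an unadjusted p under 0.05, against 2094 of all 10562 tested genes. The median log2 fold change of the 8 was -0.12, from -0.73 for Rab20 to 0.33 for Gm7600. Rab20, which encodes a small GTPase and starts 165.9 kb from the Col4a2 start, had 1.63 FPKM in WT and 0.578 in cKO (limma adjusted p = 0.0981). Irs2, on the Col4a1 side at -304.3 kb, had 2.15 and 2.16 FPKM (adjusted p = 0.985). Ankrd10, at 323.0 kb on the Col4a2 side, had 10.5 FPKM in WT and 7.25 in cKO (limma adjusted p = 0.0723). Voom called Ankrd10 lower (log2 fold change -0.54, adjusted p = 0.028) and no other neighbour. In that fit 2.62% of all genes were called lower. By voom Rab20 had a log2 fold change of -1.44 (adjusted p = 0.0556) and Gm7600 one of 0.44 (0.429).

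**Figure D4:**
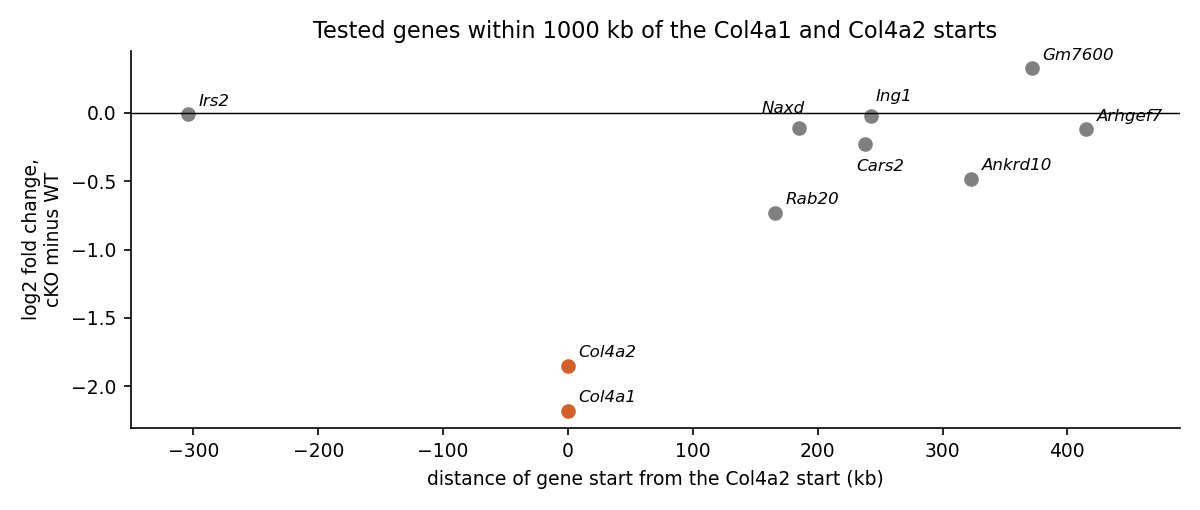
Log2 fold change of log2(FPKM + 1), cKO minus WT (y axis), against the distance of each tested gene's start from the Col4a2 start in kb (x axis). Col4a1 and Col4a2 (orange) lie at -2.18 and -1.85 and the 8 neighbours (grey) between -0.73 and 0.33.

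The genes whose pattern over the 4 libraries was closest to the mean of Col4a1 and Col4a2 were Timd2, Gja3, Nr1d1, Gm23964, Gm42047, Prr7, Pank1 and Smo. Likeness was the root mean square distance between centred log2(FPKM + 1) profiles, which was 0.166 between Col4a1 and Col4a2 and ran from 0.259 for Timd2 to 0.474 for Smo. Timd2, which encodes a TIM family surface receptor, had 2.52 and 4.69 FPKM in WT and 0.624 and 0.520 in cKO, with the same higher WT replicate 2. Gja3, a connexin gene, had 6.30 and 8.07 FPKM in WT and 2.54 and 1.93 in cKO. Gm23964, an rRNA gene of 107 bases, had only 3 and 6 reads in WT and 0 and 1 in cKO, so its likeness rests on few reads. None of these 8 is in the matrix lists, and 4 libraries allow many genes to look alike.

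The libraries held 18517487 to 20387948 recovered reads. Ppp2ca, the main PP2A catalytic gene, had 42.2 and 50.1 FPKM in WT and 41.8 and 34.5 in cKO (log2 fold change -0.27 ± 0.14, limma adjusted p = 0.36), so directions here rest on the genotype labels. The cKO libraries differed from each other along the GC content of transcripts (Spearman's rho = -0.529 across genes, which are not independent replicates). The difference of cKO minus WT also ran along GC content (rho = -0.245), with GC-rich genes tending to be lower in cKO. Col4a1 and Col4a2, at 57.7% and 60.6% GC, are richer in GC than 90.1% and 97% of tested genes. After a correction of each library for GC content the log2 fold changes were -2.06 for Col4a1, -1.69 for Col4a2, -0.42 for Lamc1 and -0.48 for Lum.

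**Figure D5:**
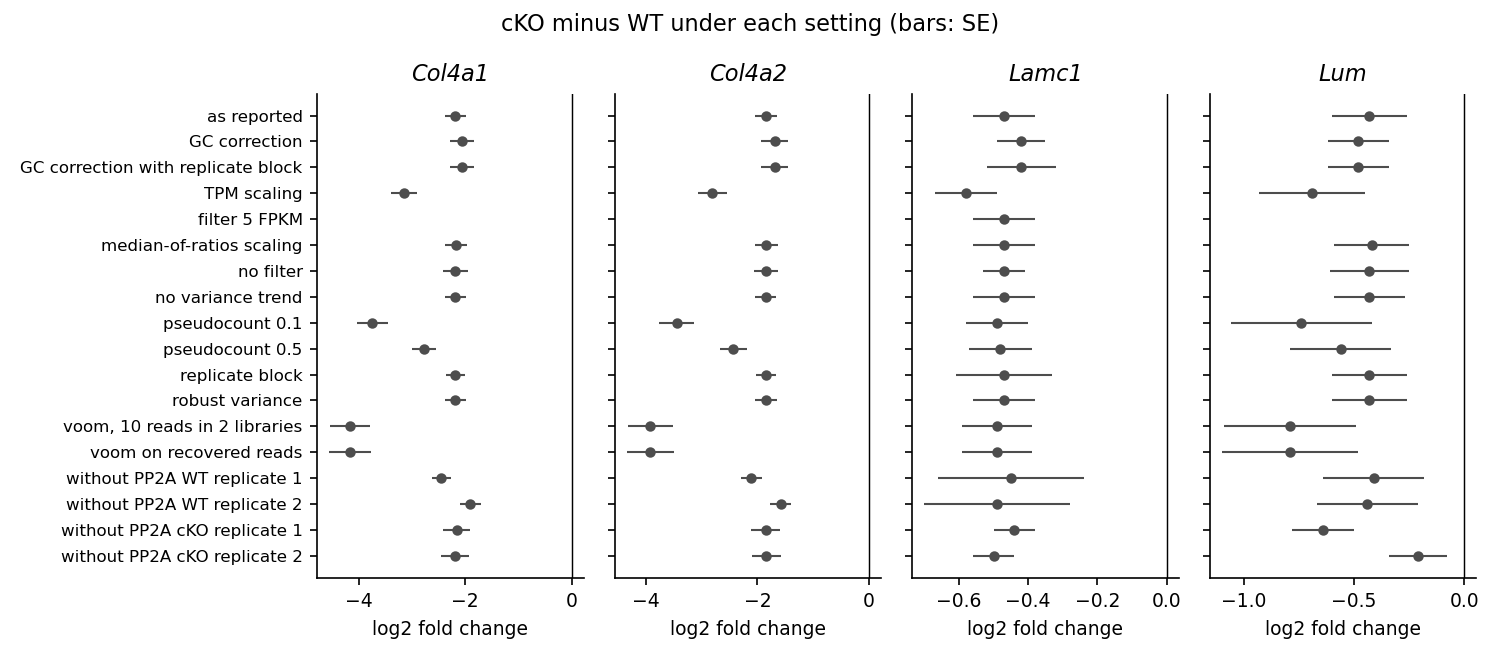
Log2 fold change, cKO minus WT (x axis, with SE bars; each panel has its own scale), of Col4a1, Col4a2, Lamc1 and Lum under each processing setting (rows). All values lie under 0; Col4a1 runs from -4.16 with voom to -1.90 without WT replicate 2, and Lum comes nearest to 0 at -0.21 without cKO replicate 2.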

How the data were processed

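RNA was sequenced from 4 libraries of Th17 cultures, 2 per genotype. The authors deposited FPKM for each gene beside its length. Per the submitters' processing notes, featureCounts 1.5.0-p3 was used, and GRCm38 and mm10 are listed as builds. For the aligner, annotation release, strand setting and FPKM tool, "not given in the sources used here" applies. Multiplying FPKM by length gave whole reads, after division by the value of 1 read in that library, for 100% of values above 0 (tolerance 0.01 read). GENCODE M21 holds 99.56% of the gene IDs, and its longest transcript per gene supplied GC content.

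The 10562 genes averaging 1 FPKM or more were tested on log2(FPKM + 1) with limma 3.58.1 in R 4.3.3, cKO minus WT, with a variance trend, no block and two-sided Benjamini-Hochberg adjustment over all of them at 0.05. The same was run on the recovered reads with voom and TMM scaling. The scripts were tested on simulated data. The 10 genes and the 13 other gene lists (6 of matrix and TGF-β response genes, 7 of cell type markers) were chosen with earlier results of these data known. Named were the 10 genes, up to 4 called genes per list and direction (the most changed where none was called), family partners, 3 top markers per cell type and the 8 nearest profiles. The neighbours of Col4a1 and Col4a2 and the other genes given with values (such as Ecm1, Emilin1, Col5a3, Smoc1, Npnt, P4hb, Itgb1 and Itga3) were chosen after their values were seen. Some genes that the rule names are not reported here. With 2 libraries against 2, leaving out a library takes the spread from the other genotype, and the lone library is assumed to vary likewise. Alternatives are in the closing section.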

Additional observations from a re-analysis of the deposited data

How the results depend on the processing

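Col4a1, Col4a2, Lamc1 and Lum were lower in cKO under all 17 alternatives that gave a value. The log2 fold changes of Col4a1 and Col4a2 were -2.77 and -2.43 with a pseudocount of 0.5, -3.74 and -3.45 with 0.1, -3.15 and -2.81 with TPM scaling and -4.16 and -3.92 with either voom fit. Lum was -0.74 with a pseudocount of 0.1, -0.69 with TPM and -0.79 with voom, and Lamc1 -0.58 with TPM and -0.42 with the GC correction, with or without the replicate block. Leaving out each library gave -2.45 to -1.90 for Col4a1, -2.11 to -1.58 for Col4a2, -0.50 to -0.44 for Lamc1, -0.64 to -0.21 for Lum and 0.109 to 0.297 for the difference in the Col4a1 to Col4a2 ratio. A filter at 5 FPKM left Lamc1 alone of the 10 genes, which is why 0 of them were then called.

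Of the 10 genes 2 were called lower, 1 with TPM and 0 without a filter. The genes were chosen by this same contrast, so nothing is read from these counts. Over all genes, 86 were higher and 27 lower. The counts were 286 and 238 with the GC correction, 191 and 95 with GC correction and replicate block, 154 and 73 with the replicate block, 25 and 1 with TPM, 284 and 263 with voom on the same genes, and 376 and 337 with voom from 10 reads. There were 0 and 0 without a filter (limma, 3012 at an unadjusted p under 0.05) and 15 lower with a pseudocount of 0.1. Leaving out a library gave 49 to 1390 higher and 6 to 1614 lower, the ends being WT replicate 2 and cKO replicate 2. Without cKO replicate 1 there were 148 and 114.

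The 6 matrix lists also hold receptors, proteases and TGF-β response genes, from which the limma calls came (Hmmr, Adam8 and Id3). In these lists 2 genes were higher and 1 lower. These were 7 higher with the GC correction, 6 and 2 with voom on the same genes, 10 and 2 with voom from 10 reads, 1 and 0 with a pseudocount of 0.1 or no variance trend, 0 and 0 with TPM or without a filter (limma, 16 and 22 at an unadjusted p under 0.05), 1 higher with a pseudocount of 0.5 or robust variance, 0 lower with the replicate block, and 0 to 12 higher and 0 to 8 lower with a library left out. Their voom counts ran from 5 to 26 higher and 0 to 14 lower with a library left out (23 and 3 without cKO replicate 1), an alternative chosen after seeing the data. The replicate numbers are not said to pair the samples: same-numbered libraries of the genotypes deviated with a correlation of -0.093 over genes. The causes of these shifts were not tested beyond what is stated. Depth limits Hspg2, Sparc, Col1a1, Col6a1 and Serpinh1, at 0 to 5 reads per library.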
